A study of Mus musculus with 4 samples.

Results

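The results concern 10 genes that carry ion transport in the distal convoluted tubule, the short segment of the nephron between the thick ascending limb and the connecting tubule. They were chosen by name from the 32285 genes that every deposited matrix lists: Slc12a3, the sodium chloride cotransporter, its regulators Wnk1, Wnk4, Klhl3 and Stk39, and the calcium and magnesium handling genes Pvalb, Calb1, Trpm6, Trpv5 and Slc8a1. All 10 were found, and all 10 are protein-coding. Expression was measured with Visium, where RNA from a tissue section is caught on a grid of barcoded spots and each caught molecule is tallied once by its unique molecular identifier (UMI). A spot can hold several cells of different types, so zones of tissue were compared and no cell type was assigned.

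There were 4 sections, each 10 µm thick and each from the left kidney of a male wild-type C57BL/6J mouse aged 7 to 8 weeks. The normal group comprised sections 1 and 2, and the ischemic group (sections 1 and 2) had both renal pedicles clamped for 30 min and was sampled 24 h later. All 4 sections lay on 1 slide. Which mouse gave which section is not stated, and the 2 sections of a group may come from 1 mouse or from 2, so sections were the replicates and a p-value measures the spread between sections, which may be technical.

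The distal convoluted tubule reabsorbs sodium chloride through the thiazide-sensitive cotransporter encoded by Slc12a3. The WNK kinases activate the kinase SPAK, encoded by Stk39, which phosphorylates and activates the cotransporter, while KLHL3 brings WNK kinases to a cullin ligase for degradation. The same segment and the adjoining connecting tubule set the final calcium and magnesium content of urine: TRPM6 takes up magnesium and TRPV5 calcium at the luminal side, parvalbumin and calbindin bind calcium in the cytoplasm, and the sodium-calcium exchanger encoded by Slc8a1 carries calcium out at the basolateral side.

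Promoters are shown for 2 members that fell by very different amounts in the cortex of ischemic sections. Slc12a3 was 1.99-fold lower there and Pvalb was 117-fold lower. Each run gives GRCm38.p6 bases before the start listed by RefSeq, cut where a GENCODE transcript start lies further upstream. Capitals are matches to TATAAA or CCAAT on either strand. The Slc12a3 run is chr8:94328958-94329200 on the plus strand and the Pvalb run is chr15:78206401-78206650 on the minus strand.
Slc12a3: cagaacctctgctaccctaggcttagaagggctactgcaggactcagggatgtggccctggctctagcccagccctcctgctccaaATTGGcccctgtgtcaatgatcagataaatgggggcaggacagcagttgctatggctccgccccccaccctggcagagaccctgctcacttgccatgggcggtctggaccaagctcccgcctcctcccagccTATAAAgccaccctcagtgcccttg
Pvalb: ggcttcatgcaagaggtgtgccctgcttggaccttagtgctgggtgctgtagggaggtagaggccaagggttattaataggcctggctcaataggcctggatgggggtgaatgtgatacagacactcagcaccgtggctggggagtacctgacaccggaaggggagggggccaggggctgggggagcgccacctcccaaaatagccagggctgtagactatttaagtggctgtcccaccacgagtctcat
In the Slc12a3 run TATAAA began 25 bases before the GENCODE start and CCAAT, on the other strand, 157 bases before it. The Pvalb run held neither. Shares were counted in windows that end at the RefSeq start, which for some genes is not the end of the runs above. Over all 32851 such windows of 250 bases, 12.4% held TATAAA and 33.8% held CCAAT on either strand, and of the 9 members with a window, 2 (Slc12a3 and Trpv5) held the first and 1 (Slc12a3) the second. The mineralocorticoid and glucocorticoid receptor half-site AGAACA and the HNF1 half-site GTTAAT were in the windows of 0 of the 9 members and in 16.1% and 6.43% of all windows. Calb1 had no entry.

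By the GENCODE annotation of GRCm38, Slc12a3 lies on chromosome 8 (94329201 to 94366214), Wnk1 on chromosome 6 (119923969 to 120038672), Wnk4 on chromosome 11 (101260567 to 101277409), Klhl3 on chromosome 13 (58000228 to 58113592) and Stk39 on chromosome 2 (68210445 to 68472268). Pvalb lies on chromosome 15 (78191114 to 78206400), Calb1 on chromosome 4 (15881264 to 15908064), Trpm6 on chromosome 19 (18749983 to 18892511), Trpv5 on chromosome 6 (41652173 to 41680769) and Slc8a1 on chromosome 17 (81373105 to 81738377). Wnk4 overlaps 1 counted gene and Slc8a1 overlaps 2, all on the opposite strand, and no other member overlaps a counted gene. Wnk1 has a short kidney-specific form as well as a long one, and the deposited counts per gene do not separate them.

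The sections held 25957128 to 44528078 UMIs over 2401 to 2682 tissue spots, with normal section 1 the deepest. Counts were summed over spots per section and zone and are given as CPM, counts scaled to a common total, with edgeR's TMM factors applied. Without these factors the median gene moved up by 0.27 on the log2 scale in whole sections and by 0.21 in the cortex, and the share of called genes that were higher in ischemic sections went from 51.1% to 67.0% and from 51.6% to 68.4%. The injury genes Havcr1 and Lcn2 stood at 0.27 and 0.41 CPM and at 0.97 and 1.73 CPM in the cortex of the normal sections against 1160 and 1244 CPM and 688 and 582 CPM in the ischemic ones, as the labels have it. Position barcodes were shared by 1833 to 2137 spots between any 2 sections, since each array carries the same set. Spots were assigned to cortex, outer stripe, inner stripe, inner medulla or pelvis from marker genes that include none of the 10 members, which gave 942 to 1191 cortex spots per section (45.5% and 43.3% of spots in normal sections, 39.2% and 36.6% in ischemic sections). Many of these markers changed with ischemia. In their own zones, 4 of 5 cortex markers were lower (median log2 difference -2.41), as were all 5 outer stripe markers (-2.98). Of 5 inner medulla markers, 4 were higher in the cortex and 0 lower. The inner medulla held 5.12% and 8.43% of spots in normal sections and 12.2% and 11.4% in ischemic sections. Whether a zone covers the same tissue in both groups was not tested.

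Transport and regulator genes of the distal convoluted tubule were lower in the cortex of the ischemic sections, with 8 of 10 members lower, 1 higher and 1 not past the threshold of an adjusted p under 0.05 (edgeR's quasi-likelihood test, Benjamini-Hochberg adjustment over 13525 genes). The background was broad, with 24.3% of all genes tested lower and 25.9% higher. The median log2 difference was -1.13 over the 10 members and 0.03 over all genes. With 2 sections against 2, an exact two-sided permutation test of 1 gene cannot go below p = 0.333, so the fit across all genes was the test throughout. In a section, fewer cells of a type and less RNA per cell cannot be told apart.

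**Figure D1:**
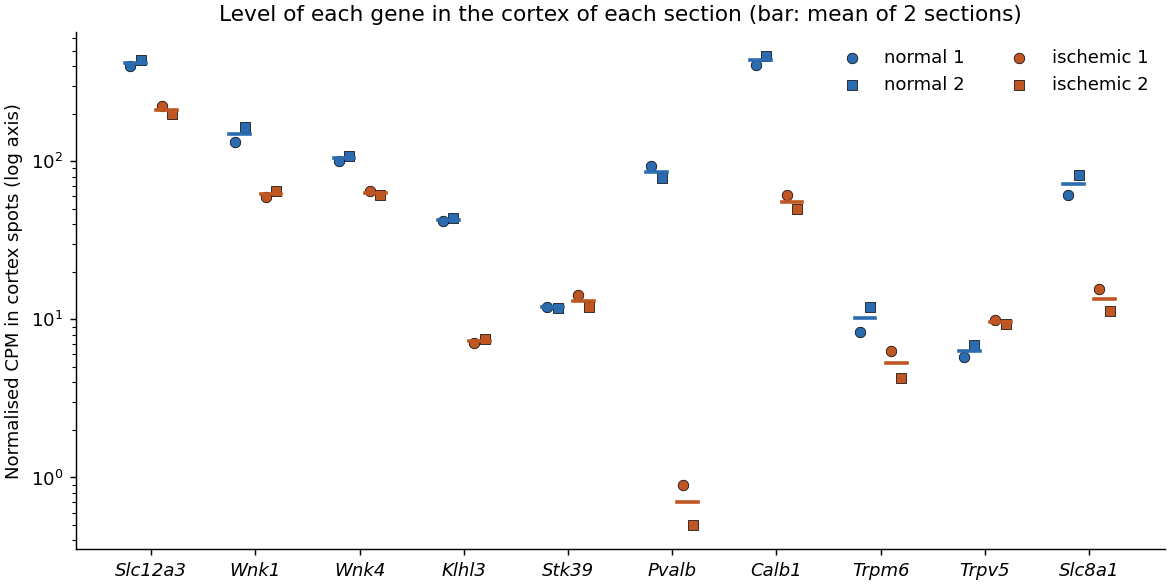
Normalised CPM in cortex spots (log axis) of the 10 genes in each of the 4 sections, with circles for section 1 and squares for section 2 of each group and a bar at the mean of 2 sections. Pvalb sits at 92.8 and 78.4 CPM in normal sections and at 0.89 and 0.50 CPM in ischemic sections, while the 4 points of Stk39 lie between 11.8 and 14.2 CPM.

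Slc12a3, the cotransporter itself, was at 401 and 435 CPM in the cortex of normal sections 1 and 2 and at 222 and 198 CPM in ischemic sections 1 and 2. The groups did not overlap, and the gene fell by 0.99 on the log2 scale (standard error 0.11, adjusted p = 1.57e-06). The counts behind these levels were 7438, 5292, 2978 and 1993 UMIs.

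Wnk1 and Wnk4, the genes of the upstream kinases, were lower as well, with the long and short forms of Wnk1 counted together. Wnk1 was at 132 and 165 CPM in normal and at 59.6 and 64.6 CPM in ischemic cortex, a fall by 1.26 on the log2 scale (standard error 0.12, adjusted p = 1.73e-07). Wnk4 was at 101 and 108 CPM against 64.5 and 61.6 CPM, a fall by 0.72 (standard error 0.10, adjusted p = 1.30e-05). Neither pair of groups overlapped.

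Klhl3, the substrate adaptor that removes WNK kinases, had the largest fall among the 5 sodium chloride genes in the cortex. It was at 41.8 and 43.5 CPM in normal and at 7.08 and 7.56 CPM in ischemic cortex, 5.84-fold lower (log2 difference -2.55, standard error 0.12, adjusted p = 6.92e-11). Stk39, the kinase between the WNK proteins and the cotransporter, was the single member not past the threshold in the cortex. Its levels were 12.0 and 11.8 CPM in the normal pair against 14.2 and 12.0 CPM in the ischemic pair, and the groups lay next to each other with a fitted difference of 0.15 on the log2 scale (standard error 0.14, adjusted p = 0.41).

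Pvalb, the parvalbumin gene that marks the early part of the segment, was nearly absent from ischemic sections. The cortex held 1723 and 953 UMIs of Pvalb in the normal sections and 12 and 5 UMIs in the ischemic sections. The fall of 117-fold (log2 difference -6.87, standard error 0.20, adjusted p = 4.15e-13) was the largest among the members. Calb1, the calbindin gene of the late segment and connecting tubule, was at 404 and 465 CPM against 61.0 and 49.5 CPM, 7.83-fold lower (log2 difference -2.97, standard error 0.13, adjusted p = 2.05e-11).

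Slc8a1, the basolateral exchanger that takes calcium out of the cell, came after Pvalb and Calb1 in size among the calcium and magnesium genes. It was at 60.8 and 81.9 CPM in normal and at 15.5 and 11.2 CPM in ischemic cortex, 5.24-fold lower (log2 difference -2.39, standard error 0.16, adjusted p = 3.08e-09). The 2 luminal channels went opposite ways. Trpm6 was at 8.30 and 12.0 CPM against 6.33 and 4.28 CPM (log2 difference -0.89, standard error 0.22, adjusted p = 0.0034). Trpv5 was at 5.77 and 6.91 CPM against 9.91 and 9.35 CPM (log2 difference 0.62, standard error 0.17, adjusted p = 0.0075). Both channels rest on few UMIs, 43 to 154 per section for Trpm6 and 84 to 133 for Trpv5. The Trpm6 call was lost with library totals in place of TMM (adjusted p = 0.065). The Trpv5 call was lost with DESeq2 (0.10), in 1 model over all zones (0.094) and without ischemic section 1 (0.060).

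**Figure D2:**
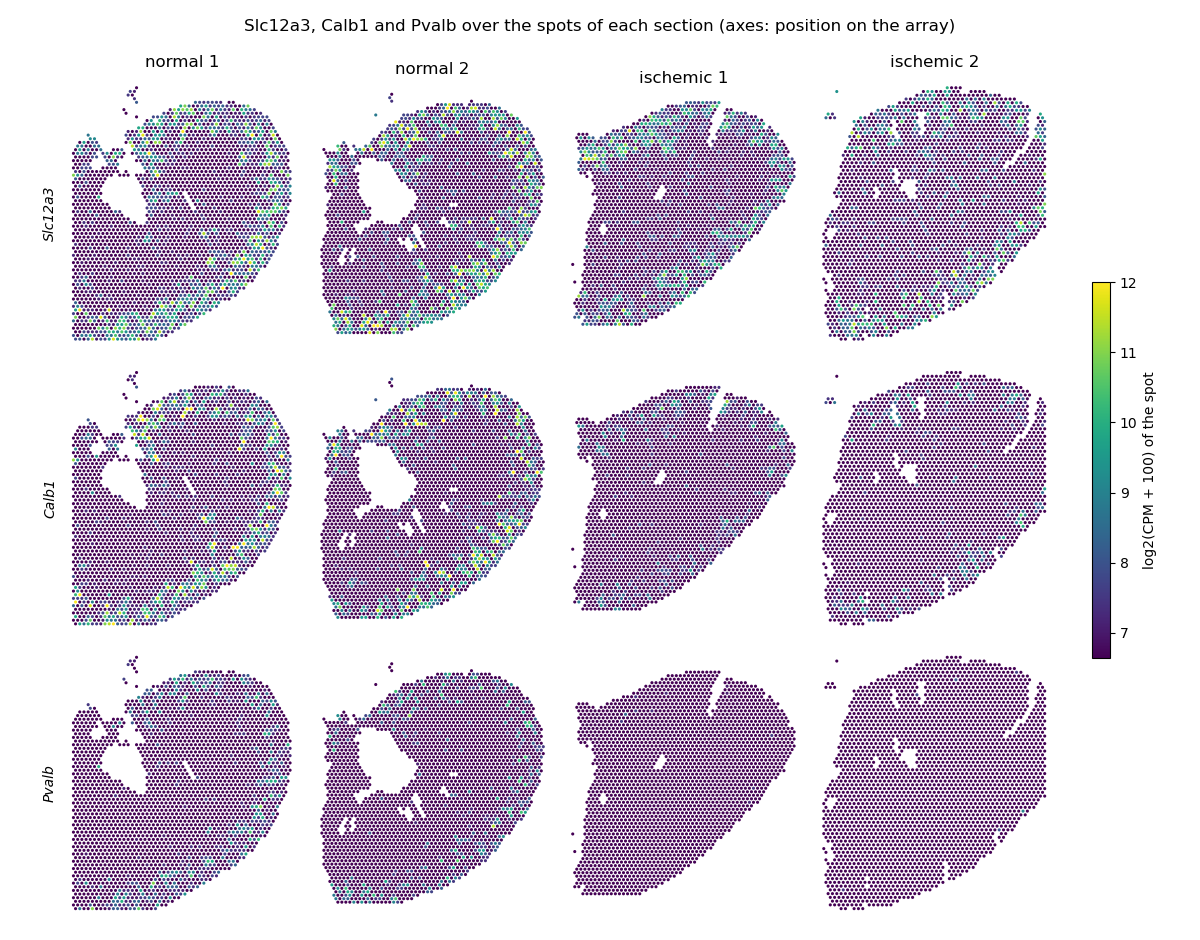
Each point is a tissue spot at its place on the array, coloured by log2(CPM + 100) of Slc12a3 (top), Calb1 (middle) and Pvalb (bottom) in the 4 sections. Slc12a3 forms a cortical rim in all 4 sections, Calb1 a rim that is bright in normal and faint in ischemic sections, and Pvalb a rim in the normal sections only, where 36.3% and 25.8% of cortex spots hold a UMI against 1.17% and 0.52%.

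The counts of each member were also set against those of Slc12a3 in the same cortex spots, which needs no scaling between sections. Calb1 had 1.01 and 1.07 UMIs per UMI of Slc12a3 in normal cortex and 0.27 and 0.25 in ischemic cortex. For Pvalb the ratio was 0.23 and 0.18 against 0.0040 and 0.0025. For Klhl3 it was 0.10 and 0.10 against 0.032 and 0.038, and for Slc8a1 0.15 and 0.19 against 0.070 and 0.057. For these 4 genes both ischemic ratios lay below both normal ones. Wnk1 had ratios of 0.33 and 0.38 against 0.27 and 0.33, next to each other, and Trpm6 0.021 and 0.028 against 0.029 and 0.022, which overlap. The ratios of 3 members were higher in both ischemic sections: Wnk4 at 0.25 and 0.25 against 0.29 and 0.31, Stk39 at 0.030 and 0.027 against 0.064 and 0.061, and Trpv5 at 0.014 and 0.016 against 0.045 and 0.047. Slc12a3 itself fell by 0.99 on the log2 scale, beside a median of 0.03 over all genes. A gene whose level held would thus gain in this ratio. Wnk4, with a higher ratio, fell by 0.72 in level. The ratios are given as values, with no test, and the share of all genes with such ratios was not counted.

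Detection was counted in single spots. Of cortex spots, 69.4% (95% Clopper-Pearson interval 66.7 to 72.0) and 61.3% (58.4 to 64.1) held a Slc12a3 UMI in normal sections, and 61.0% (57.8 to 64.2) and 47.4% (44.2 to 50.7) in ischemic sections. In the inner stripe, a zone that should lack the distal convoluted tubule, the share was 12.9% to 15.03% in the 4 sections. Median depth was 8507 to 16989 UMIs in cortex spots and 7146 to 13921 in inner stripe spots. After each spot was thinned to 2000 UMIs, which left out 11 to 82 cortex spots per section, the Slc12a3 shares were 29.7% and 36.3% against 28.6% and 24.8%. At equal depth the highest ischemic share lay just under the lowest normal one. The thinned shares come from a single random draw and have no interval, so this order could differ in another draw. The Klhl3 shares after thinning were 6.53% and 7.86% against 0.98% and 1.26%, and those of Calb1 23.6% and 24.9% against 8.96% and 8.00%. Pvalb was in 11 and 5 of the ischemic cortex spots, and after thinning in 1 spot of each ischemic section against 139 and 120 normal spots. Intervals cover counting error only.

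Whole sections, which take in all zones, gave 7 members lower and 1 higher, beside 29.7% lower and 31% higher over 15305 genes. The 1 that rose was Stk39, at 15.3 and 15.6 CPM in normal against 27.7 and 28.4 CPM in ischemic sections (log2 difference 0.87, standard error 0.09, adjusted p = 5.15e-05). In the cortex the same gene was not past the threshold, as given above. Slc12a3 fell by 1.25 in whole sections, from 218 and 214 CPM to 98.6 and 82.9 CPM, and Wnk1 by 0.54, from 92.3 and 105 CPM to 67.7 and 67.4 CPM. The Wnk1 call was lost with library totals (adjusted p = 0.11) and without ischemic section 1 or 2 (0.059 and 0.061). Trpm6 was at 4.55 and 5.76 against 4.15 and 3.35 CPM (adjusted p = 0.078) and Trpv5 at 3.31 and 3.15 against 4.12 and 3.60 CPM (adjusted p = 0.26).

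**Figure D3:**
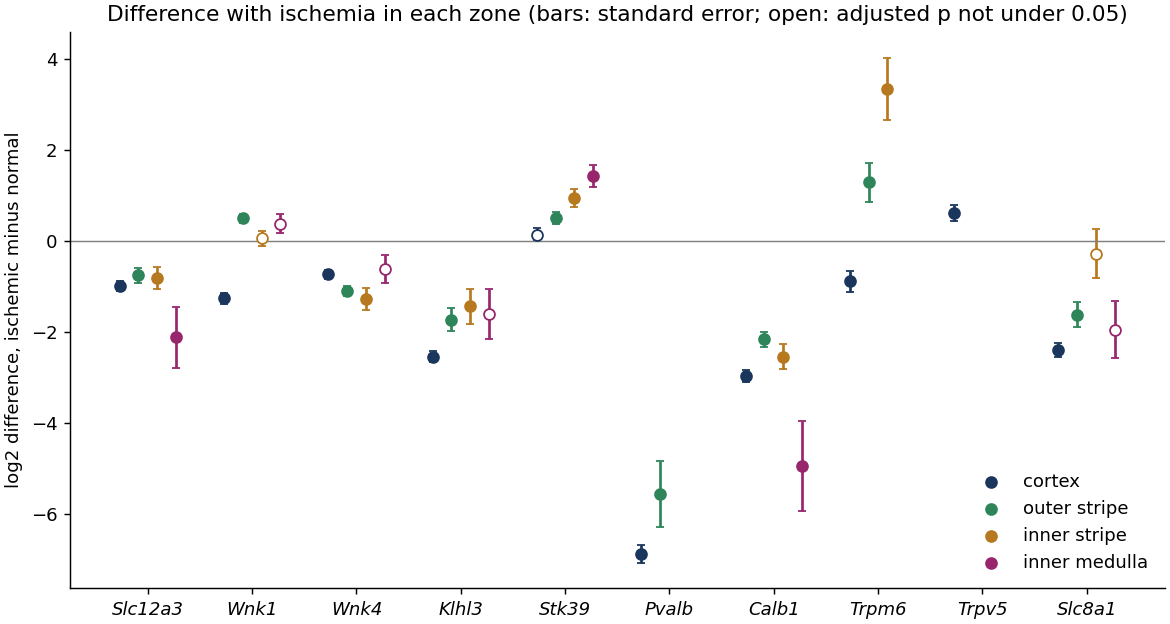
Log2 difference between ischemic and normal sections (y axis) of each gene in the 4 zones, with bars for the standard error and open points where the adjusted p was not under 0.05. Wnk1 and Trpm6 lie below 0 in the cortex (-1.26 and -0.89) and above 0 in the outer stripe (0.50 and 1.297). Members that were not tested in a zone, and Pvalb in the inner stripe, where ischemic sections held no UMI, are left out.

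In the outer stripe, the outermost layer of the outer medulla, 9 members passed the filter on low counts and all 9 passed the threshold, 6 lower and 3 higher. Over all 13297 genes the shares were 32.9% lower and 34.3% higher. Wnk1 rose here, from 44.4 and 55.8 CPM to 70.0 and 71.1 CPM (log2 difference 0.50, standard error 0.11, adjusted p = 0.00025). Stk39 rose from 14.7 and 11.6 to 18.7 and 19.3 CPM (log2 difference 0.51, adjusted p = 0.0024), and Trpm6 rose from 0.56 and 0.97 to 1.89 and 1.76 CPM (log2 difference 1.297, adjusted p = 0.010). The Trpm6 values stand on 7 and 9 UMIs against 22 and 17. Its call was lost with DESeq2 (adjusted p = 0.18), without normal section 1 (0.17) or ischemic section 1 (0.098) or 2 (0.057), and with podocyte genes as the cortex markers (0.17), where Wnk1 was lost too (0.13). The Stk39 call was lost with DESeq2 (0.081), and its log2 difference was 0.33 without normal section 2. Slc12a3 was at 28.3 and 48.1 against 20.9 and 24.0 CPM, a fall by 0.75 that was -0.38 without normal section 2, was lost with library totals (adjusted p = 0.080) and turned to 0.18 when spots were scored without their neighbours. Pvalb had 59 UMIs in the 2 normal sections and 1 UMI in the ischemic ones, with a fitted fall of 46.9-fold. Per UMI of the zone, pooled over sections and without TMM, the ratio was 44.3 (95% exact counting interval 7.66 to 1781).

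In the inner stripe, 7 of 9 tested members passed, 5 lower and 2 higher, beside 22.7% lower and 20% higher over 12579 genes. Stk39 rose from 27.1 and 39.0 CPM to 65.1 and 61.4 CPM (log2 difference 0.96, standard error 0.20, adjusted p = 0.0043). Trpm6 was called higher from 2 UMIs in the normal sections and 31 in the ischemic sections, with a fitted difference of 10.2-fold. Per UMI of the zone, pooled over sections and without TMM, the ratio was 14.4 (95% exact counting interval 3.67 to 124). The Trpm6 call was lost with DESeq2 (adjusted p = 0.062) and with zones scored without neighbours (0.33). Its direction turned with podocyte genes as the cortex markers (-0.20). Wnk4, which is also a thick ascending limb kinase, fell here from 112 and 187 CPM to 64.5 and 59.0 CPM (log2 difference -1.27, adjusted p = 0.0028). Pvalb was at 5.01 and 4.42 CPM in normal sections and had no UMI in the ischemic ones, which makes it at least 7.74-fold lower at a floor of 3 counts in each section. Calb1 was at 19.6 and 23.6 against 4.03 and 3.28 CPM, and Klhl3 at 8.89 and 18.8 against 5.04 and 4.71 CPM, a call lost with library totals (adjusted p = 0.093) and a log2 difference of -1.44 that was -0.93 without normal section 2. Slc12a3 was at 23.9 and 34.6 against 14.3 and 18.6 CPM (adjusted p = 0.023), and its call was lost with DESeq2 (0.099), library totals (0.25), without ischemic section 1 (0.22), without boundary spots (0.61) and with Slc12a3 among the cortex markers (0.80). Wnk1 (62.0 and 71.1 against 71.1 and 67.6 CPM) and Slc8a1 (2.96 and 4.42 against 1.61 and 4.30 CPM) overlapped between groups and did not pass. With zones scored without neighbours both were called lower, Slc8a1 at -1.74 (adjusted p = 0.00088) and Wnk1 at -0.41 (0.036), and with podocyte genes as the cortex markers Slc8a1 was called lower too (-1.05, adjusted p = 0.0060).

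Among the 4 zones compared the inner medulla was the smallest (134 and 226 spots in normal sections, 293 and 299 in ischemic ones). There 3 of 7 tested members passed, 2 lower and 1 higher, beside 16.3% lower and 11.1% higher over 11179 genes. Stk39 rose from 16.4 and 25.2 CPM to 57.9 and 58.3 CPM, 2.70-fold (log2 difference 1.43, standard error 0.25, adjusted p = 0.0046). The zone in normal section 1 held 139 CPM of Slc12a3 and 91.6 CPM of Calb1 against 23.3 and 14.0 CPM in normal section 2. With all 4 sections the log2 difference was -2.12 for Slc12a3 (adjusted p = 0.049) and -4.94 for Calb1 (adjusted p = 0.0086). Without normal section 1 it was -0.40 for Slc12a3 and -3.14 for Calb1. Calb1 then rests on 21 UMIs in normal section 2 against 6 and 2 in the ischemic sections. Without normal section 2 the number past the threshold was 5. The part of this section's zone borders in the result was not tested.

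The members were compared between zones next. In normal sections, 9 of 10 members were higher in the cortex than in the mean of the other 3 zones and 1 was lower, beside 17.9% higher and 16% lower over 14534 genes. The differences were largest for Pvalb (log2 difference 4.83, standard error 0.15), Calb1 (4.19, standard error 0.20) and Trpm6 (4.02, standard error 0.25) and smallest for Wnk4 (0.41, standard error 0.13, adjusted p = 0.024). Cortex spots held 96.9% and 95.1% of all Pvalb UMIs and 91.7% and 91.8% of all Trpm6 UMIs of the normal sections. The size for Trpm6 hangs on few molecules. Normal sections held 1 and 1 UMI of it in the inner stripe and 1 and 3 in the inner medulla. These zones weigh as much in the mean as the outer stripe. Stk39 was the 1 lower in the cortex (-0.59, standard error 0.15, adjusted p = 0.0061), with its highest level in the inner stripe. The Stk39 call was lost without normal section 2 (adjusted p = 0.083). The Wnk4 call was lost with DESeq2 (0.063), with library totals (0.24), with no section block (0.12) and without normal section 1 (0.12), ischemic section 1 (0.061) or ischemic section 2 (0.060), and the value was 0.68 without normal section 2.

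In ischemic sections, 8 members were higher in the cortex than in the other zones and 1 was lower, beside 27% higher and 22.5% lower over all genes. Wnk1 had gone from 1.59 (standard error 0.08, adjusted p = 3.81e-10) in normal sections to 0.01 (standard error 0.08, adjusted p = 0.95) in ischemic sections. Its direction in ischemic sections turned with the scaling, to -0.24 with library totals (adjusted p = 0.016). Of all Wnk1 UMIs, 72.1% and 69.4% lay in the cortex of normal sections and 34.8% and 33.6% in that of ischemic sections, while the cortex held 45.5% and 43.3% of spots against 39.2% and 36.6%. Trpm6 went from 91.7% and 91.8% in the cortex to 60.3% and 44.8%. Without ischemic section 1, the calls of Wnk4 (adjusted p = 0.080), Pvalb (0.086) and Trpm6 (0.17) were lost.

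The change in this cortex contrast was then tested as an interaction. For 4 members the cortex fell relative to the other zones and no member rose past the threshold, beside 5.72% of all genes lower and 13.6% higher. At an unadjusted p under 0.05 the only further member was Slc8a1 (log2 difference -1.12, standard error 0.38, adjusted p = 0.052). Wnk1 changed by -1.57 (standard error 0.11, adjusted p = 3.07e-07) and Trpm6 by -2.96 (standard error 0.36, adjusted p = 3.35e-05), and both calls held under all 13 alternatives run. Stk39 changed by -0.82 (standard error 0.20, adjusted p = 0.0077) and Klhl3 by -0.98 (standard error 0.31, adjusted p = 0.038), and each of these calls was lost without ischemic section 1 (adjusted p = 0.077 and 0.30) or 2 (0.14 and 0.25). The Klhl3 call was lost in 4 further alternatives. The size for Trpm6 hangs on its few UMIs outside the cortex of normal sections, given above. The number of members called was 2 without either ischemic section and 7 without normal section 2.

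Against the outer stripe alone, 2 members changed, both lower, beside 7.83% lower and 12.8% higher over all genes, and no other member had an unadjusted p under 0.05. The number called was 4 without normal section 1 and 6 without normal section 2. Wnk1 changed by -1.74 (standard error 0.13, adjusted p = 1.31e-06) and Trpm6 by -2.17 (standard error 0.41, adjusted p = 0.0015). By zone, Wnk1 stood in normal section 1 at 132, 44.4, 62.0 and 57.8 CPM from cortex to inner medulla, and in normal section 2 at 165, 55.8, 71.1 and 57.8 CPM. In ischemic sections it was nearly flat, at 59.6, 70.0, 71.1 and 82.9 CPM in section 1 and at 64.6, 71.1, 67.6 and 68.2 CPM in section 2. The cortical excess of Wnk1 was thus seen in the normal sections and not in the ischemic ones.

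**Figure D4:**
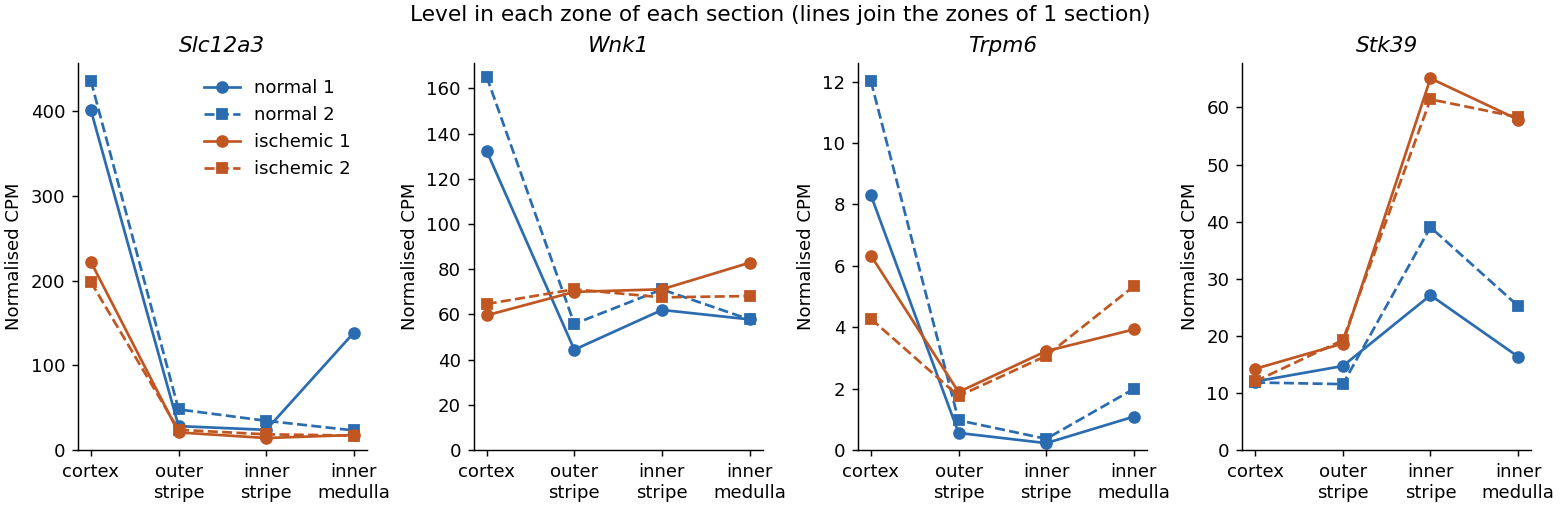
Normalised CPM (y axis) of Slc12a3, Wnk1, Trpm6 and Stk39 in the 4 zones (x axis), with a line for each section, blue for normal and orange for ischemic, and TMM factors set within each zone. Slc12a3 keeps a cortical peak in all sections, Wnk1 loses it in the ischemic sections, and Stk39 reaches 65.1 and 61.4 CPM in the inner stripe of ischemic sections against 27.1 and 39.0 CPM in normal sections.

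To see which members share spots with the cotransporter, the 25% of cortex spots with the highest Slc12a3 CPM were set against the other cortex spots of the same section, in spots of at least 2000 UMIs. The spots were picked on Slc12a3, so its own ratio, 16.8 and 14.4 in the normal pair against 12.1 and 16.01 in the ischemic pair, follows from the choice. With fewer Slc12a3 UMIs a spot is ranked with more counting error, and the part of this in the ratios below was not tested. The ratios are given with no test.

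All 9 other members were more abundant in the Slc12a3-rich spots of both normal sections. Pvalb was 14.2-fold and 10.96-fold higher there, Trpm6 15.5-fold and 10.0-fold, Calb1 9.90-fold and 8.29-fold and Klhl3 7.99-fold and 7.92-fold. Wnk1 was 4.60-fold and 4.75-fold higher and Stk39 3.32-fold and 3.31-fold. In ischemic sections the Wnk1 ratio was 1.49 and 1.46, the Klhl3 ratio 1.60 and 2.60 and the Slc8a1 ratio 2.05 and 2.02, against 6.20 and 5.51 for Slc8a1 in normal sections. Each of these lay below both normal sections. The Trpm6 ratio was 4.73 and 9.33 and the Calb1 ratio 4.33 and 4.01, also below both normal sections. The same held for Wnk4, Stk39 and Trpv5, and the share of all genes with such a fall was not counted. For Trpm6 the section 2 values lay close together, on few UMIs. The 9.33 of ischemic section 2 rests on 31 and 11 UMIs, and the 10.0 of normal section 2 on 113 and 33. Of the 17 Pvalb UMIs in ischemic cortex, 15 lay in the Slc12a3-rich spots.

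Stk39 and Wnk4 lay nearer 1 than Calb1 or Trpm6 did in every section. The Wnk4 ratio was 3.46 and 3.07 against 1.65 and 1.73, and the Stk39 ratio in ischemic sections was 1.74 and 2.36. Trpv5 was 4.34-fold and 3.53-fold higher in Slc12a3-rich spots of normal sections and 1.67-fold and 2.45-fold higher in those of ischemic sections. Markers of neighbouring segments were nearer to even. The summed thick ascending limb list had ratios of 1.10 to 1.52 in the 4 sections, the intercalated cell list 0.99 to 1.58, the connecting tubule and principal cell list 0.79 to 1.07 and the proximal tubule list 0.74 to 0.82.

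**Figure D5:**
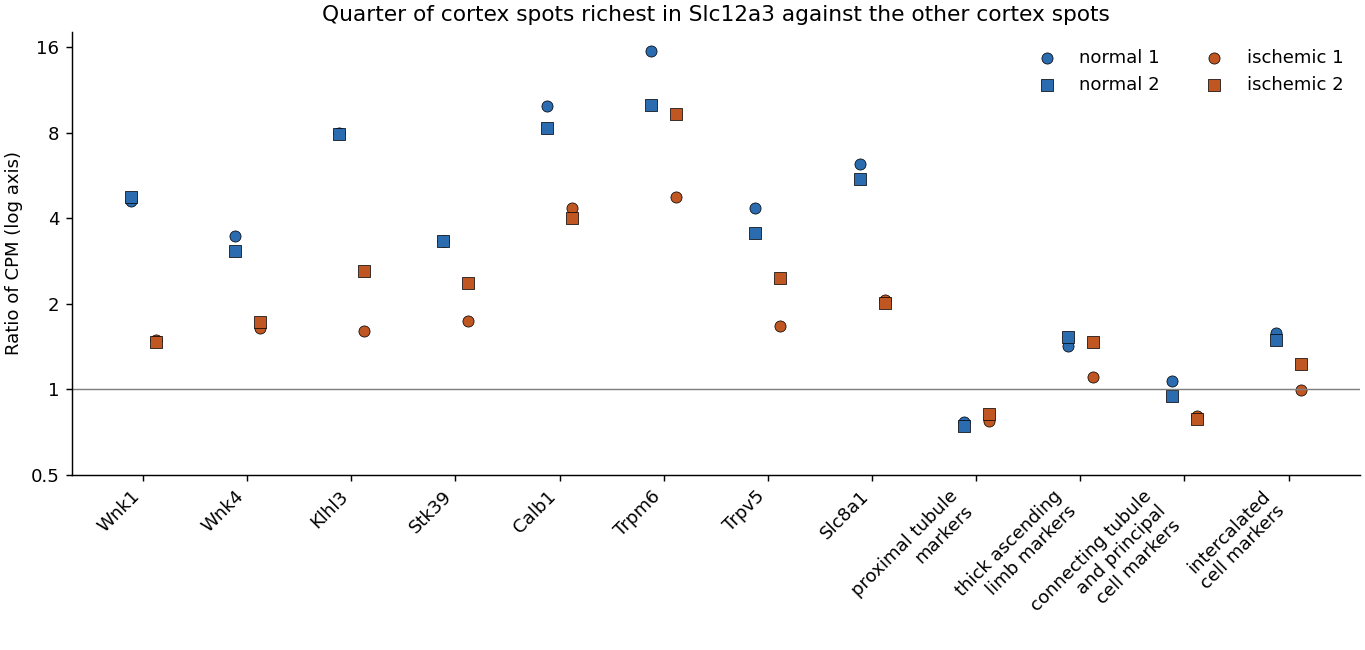
Ratio (log axis) of the CPM in the 25% of cortex spots richest in Slc12a3 to that in the other cortex spots, for 8 genes and 4 summed marker lists, with 1 point per section. Wnk1 is at 4.60 and 4.75 in the normal pair and at 1.49 and 1.46 in the ischemic pair, and the marker lists lie between 0.74 and 1.58. Pvalb is not drawn because ischemic section 1 had no Pvalb UMI in the other cortex spots.

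The likeness of each gene to Slc12a3 was measured as Pearson's r of log2(CPM + 100) across the 2343 to 2568 spots of a section that held at least 2000 UMIs, averaged over the 4 sections. Spots share a library, a depth and a tissue, and the values are descriptions. Among 5382 genes with at least 500 UMIs in every section, the median r was -0.0037 and the 99th percentile 0.22. Among the 10 most alike were Tmem52b (0.57), Calb1 (0.50), S100g (0.47), Klk1 (0.46), Hoxb5os (0.43), Tmem213 (0.39), Fxyd2 (0.36) and Ldhb (0.35). Calb1 came second in rank, Wnk1 19th (0.29) and Wnk4 33rd (0.25). With a pseudocount of 10 CPM in place of 100, Wnk1 was at rank 68 and Wnk4 at rank 97. The other 6 members had too few UMIs to be ranked, and their mean r was 0.39 for Pvalb, 0.36 for Klhl3, 0.32 for Slc8a1, 0.31 for Trpm6, 0.20 for Trpv5 and 0.00 for Stk39.

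The mean hides a difference between groups. Wnk1 had an r with Slc12a3 of 0.59 and 0.55 in normal sections and of 0.0033 and 0.023 in ischemic sections. Klhl3 had 0.62 and 0.56 against 0.13 and 0.13, and Pvalb 0.71 and 0.61 against 0.19 and 0.045. The ischemic values rest on few UMIs, 156 and 135 per section for Klhl3 and 12 and 6 for Pvalb. The normal sections held 917 and 672 for Klhl3 and 1779 and 1002 for Pvalb. With fewer UMIs r carries more counting error, and the part of this in the difference was not tested. Tmem52b, the gene most like Slc12a3, had 0.69 and 0.66 against 0.49 and 0.42, so r was lower in ischemic sections for this gene also. In cortex spots alone, Wnk1 had 0.64 and 0.61 against 0.090 and 0.11. Over all spots Stk39 was the member least like Slc12a3, with 0.085 and 0.057 against -0.094 and -0.049. In cortex spots Trpv5 was the least alike, with 0.22 and 0.15 against 0.071 and 0.086, and Stk39 had 0.25 and 0.20 against 0.11 and 0.15.

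Other genes of the same pathways were described from lists, of which 10 of 11 regulators of the WNK and SPAK kinases could be tested in the cortex, with 3 lower and 3 higher. Ppp1r1a, an inhibitor of protein phosphatase 1, fell by 2.54 on the log2 scale (adjusted p = 4.17e-11), from 569 and 525 CPM to 100.1 and 88.4 CPM. Wnk2 fell by 0.85 (adjusted p = 0.027) and Cab39l, a SPAK cofactor, by 0.37 (adjusted p = 0.0073). Oxsr1, the close relative of Stk39, rose by 0.67 (adjusted p = 0.00021), Klhl2, the close relative of Klhl3, by 0.38 (adjusted p = 0.036) and the ubiquitin ligase gene Nedd4l by 0.31 (adjusted p = 0.015). The median of the list was -0.14 beside 0.03 over all genes. Of all genes tested in the cortex 24.3% were lower and 25.9% higher, and the counts of this list were near these shares. With DESeq2 and without ischemic section 2 the number past the threshold was 2, and without ischemic section 1 and in 1 model over all zones it was 3.

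Of 8 chloride and potassium channel and sodium pump genes, 5 were lower in the cortex and 3 did not pass the threshold. Bsnd, the chloride channel subunit barttin, fell by 1.68 (adjusted p = 1.74e-08) and the pump subunit gene Fxyd2 by 1.09 (adjusted p = 3.41e-05). The pump subunit gene Atp1b1 had a log2 difference of -0.11 and did not pass (adjusted p = 0.50). The median was -0.60, and over all genes 24.3% were lower and 25.9% higher.

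Of 10 further calcium handling genes, 5 were lower and 2 higher, beside 24.3% lower and 25.9% higher over all genes. Kl, a co-receptor of the hormone FGF23, fell by 2.29 (adjusted p = 1.22e-10), the kallikrein gene Klk1 by 2.13 (adjusted p = 1.33e-08) and the calcium-sensing receptor gene Casr by 1.72 (adjusted p = 0.00012). S100g, the other calbindin gene, fell by 0.93 (adjusted p = 8.22e-05). Cyp24a1, which inactivates vitamin D, rose by 2.83 (adjusted p = 2.04e-11), from 29.9 and 37.5 CPM to 226 and 250 CPM. Trpv6, the channel most like Trpv5, rose by 1.97 (adjusted p = 0.00011), from 1.02 and 1.48 to 5.74 and 3.68 CPM. The list's median was -0.27.

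Of 9 tested magnesium handling genes out of 10, 4 were lower and 2 higher, with a median of -0.37. Over all genes 24.3% were lower and 25.9% higher, which also stands beside the transcription factor counts below. Egf, whose product stimulates TRPM6, fell by 6.55 (adjusted p = 2.97e-14), from 458 and 476 CPM to 5.14 and 4.77 CPM. Pcbd1 fell by 1.63 (adjusted p = 2.88e-08) and Cnnm2 by 0.74 (adjusted p = 0.00019), while Arl15 rose by 0.87 (adjusted p = 0.00011) and Slc41a1 by 0.53 (adjusted p = 0.018). Of 6 transcription factor genes of the distal tubule, 3 were lower, among them Sall3, which fell by 1.70 (adjusted p = 5.23e-05), Emx1, which fell by 1.06 (adjusted p = 7.48e-06) and the mineralocorticoid receptor gene Nr3c2, which fell by 0.81 (adjusted p = 0.011). Tfcp2l1 was the 1 that rose, by 0.26 (adjusted p = 0.037), and the median was -0.48. The number of transcription factors past the threshold was 2 with DESeq2, without ischemic section 1 and with podocyte genes as the cortex markers.

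Markers of other cells moved in the same cortex spots, where 24.3% of all genes tested were lower and 25.9% higher. Without TMM scaling, the summed level of the 9 proximal tubule markers was 9698 and 9667 CPM in the normal pair against 4236 and 4328 CPM in the ischemic pair, with 8 of 9 lower. The 5 thick ascending limb markers summed to 1671 and 1597 against 970 and 832 CPM, with 3 lower, and the 5 intercalated cell markers to 405 and 507 against 321 and 263 CPM, with all 5 lower. The 6 connecting tubule and principal cell markers summed to 340 and 410 against 416 and 363 CPM, with 2 lower and 1 higher, and the 5 neutrophil markers to 1.28 and 1.70 against 67.7 and 84.6 CPM, with 4 of 4 tested higher. No marker of the first 4 lists was at 0 in any section, and of the neutrophil markers Retnlg was at 0 in normal section 2. The mitochondrial share of cortex UMIs was 5.43% and 5.52% against 3.83% and 4.59%. The part of these shifts in the members' differences was not tested.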

How the data were processed

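Of the study's data, 4 Visium kidney sections were analysed here, 2 normal and 2 ischemic. The authors ran Space Ranger 1.3.0 (mm10, per the labels) and deposited, for every spot, raw UMI counts of each gene together with its position. The members and gene lists were chosen with earlier results of these data known. Marker CPM, pooled over a spot and the 6 or fewer spots around it, was averaged on a log2 scale over genes, standardised within the section, and the highest score set the zone. Pelvis, left out of the comparisons, needed at least 10 marker counts and the top 5%. Counts were summed per section and zone of at least 20 spots and tested by the quasi-likelihood method of edgeR 4.0.16 in R 4.3.3, after filterByExpr and TMM scaling, at a Benjamini-Hochberg threshold of 0.05, with DESeq2 1.42.0 as an alternative. Contrasts between zones had a section block. A fit without 1 section leaves 1 section in that group, and its p-value does not measure the spread of that group. Standard errors were derived from the F statistic. Depth per section is given with the results. Intervals are 95% and cover counting error only. The fits were tested on simulated data. Genes named are the 10 members, Havcr1 and Lcn2, up to 3 per pathway list and direction with the largest change past the threshold, the 10 genes most like Slc12a3, and, chosen after their values were seen, S100g and Atp1b1. Some genes that this rule names are not reported here. Sections of a group were not duplicates (chi-square per degree of freedom 41.9 and 7.32).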

Additional observations from a re-analysis of the deposited data

Results flagged for a closer look

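The change with ischemia in the cortex differed from that in the mean of the other 3 zones, by an interaction test in edgeR, for 4 of the 10 members. The log2 difference of the changes, cortex minus other zones, was -1.57 for Wnk1 (standard error 0.11, adjusted p = 3.07e-07) and -2.96 for Trpm6 (standard error 0.36, adjusted p = 3.35e-05). It was -0.82 for Stk39 (standard error 0.20, adjusted p = 0.0077) and -0.98 for Klhl3 (standard error 0.31, adjusted p = 0.038), and both of these were lost without either ischemic section. Trpm6 outside the cortex rests, with outer stripe, inner stripe and inner medulla summed, on 9 UMIs in normal section 1 and 13 in normal section 2. Zones were set by markers that changed with ischemia, and whether they cover the same tissue in both groups was not tested.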

How the results depend on the processing

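Over the 837 repeats of single-member values under the alternatives, 762 kept direction and side of the threshold, 42 lost the call, 18 gained it and 15 turned direction. In the cortex comparison 136 of 140 repeats kept both, and 8 or 9 members were called under every alternative, with Slc12a3, Wnk1, Wnk4, Klhl3, Pvalb, Calb1 and Slc8a1 called lower in all of them. Scored without neighbours, zones gave 0.18 for Slc12a3 in the outer stripe, -1.74 for Slc8a1 in the inner stripe (called lower), -0.41 (inner stripe, called lower) and -0.38 (inner medulla) for Wnk1, and -0.0904 for Wnk1 in cortex against other zones of ischemic sections, and the number called was 7 in the inner medulla and 5 for cortex against outer stripe. With podocyte genes for cortex, Wnk1 was at -0.29 and -0.40 and Trpm6 at -0.20 and Slc8a1 at -1.05 (called lower) in the inner stripe, with 7 called in the inner medulla. With library totals, Slc8a1 in the inner stripe was 0.0326 and Wnk1 in ischemic cortex against other zones -0.24, and it was -0.00608 with DESeq2, -0.00247 with Slc12a3 as a cortex marker, where inner stripe Slc8a1 was 0.44, and -0.148 to 0.0833 when a section was left out (lowest without ischemic section 2). Leaving out a section gave -0.0306 (without normal section 1) to 0.116 for inner stripe Wnk1 and -1.13 to 0.270 (without ischemic section 1) for inner stripe Slc8a1. With boundary spots left out 4 were called in the inner stripe, and with no filter 4 for cortex against outer stripe. Leaving out a section gave 3 to 5 called in the inner medulla, 2 to 7 for the change of the cortex contrast and 2 to 6 for cortex against outer stripe. Mean shares of cortex spots with Slc12a3 became 33.0% (normal) and 26.7% (ischemic) after thinning. The cause of these shifts was not tested, other than thinning, which lowers shares by design. With library totals the share of calls that were higher went from 51.0% to 69.7% (outer stripe), 46.9% to 62.7% (inner stripe), 52.9% to 29.0% and 54.5% to 30.1% (cortex against other zones, normal and ischemic), 70.4% to 60.0% (change of the contrast) and 62.1% to 39.9% (against outer stripe).

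Section numbers were shared between groups, and the main tests did not pair them. Deviations of the 2 pairs correlated at 0.16 in whole sections and 0.053 in the cortex. With 2 pairs this cannot show whether same-numbered sections were linked in processing. Section 1 was the deeper in both groups (44528078 against 27657481 UMIs in normal, 31053530 against 25957128 in ischemic sections). With the replicate number as a block the number of members called was 9 for whole sections, 9 for cortex and 9 for outer stripe. It was 7 for inner stripe and 5 for inner medulla. This was more than without the block for whole sections and inner medulla and the same for the others. With 2 sections per group from 1 or 2 mice, a 3' count per gene and mixed spots, isoforms, protein and cell numbers were not measured, and low members (Trpm6, Trpv5) rest on few UMIs.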
